A study of Mus musculus with 10 samples.

Results

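The mRNAs of 9 hormones and other secreted proteins of fat cells were followed in interscapular brown adipose tissue (iBAT): Adipoq, Lep, Retn, Cfd, Rbp4, Rarres2, Nrg4, Bmp8b and Angptl4. They were chosen by name as adipokines and brown fat secreted factors, and each has 1 row among the 15075 genes of the table. All 9 passed the filter on low values, as did 11244 genes in all. The tissue came from 5 Control and 5 AdCKO mice, 1 library from each. All mice were C57BL/6, 20 weeks old and kept at room temperature, and all carried Crls1 alleles in which exon 4 is flanked by loxP sites. AdCKO mice also carried Adipoq-Cre, a bacterial artificial chromosome transgene that expresses Cre recombinase from the adiponectin promoter, and thus in brown and white adipocytes alike. Control mice had no Cre, and the sample labels call them wild-type. Crls1 encodes cardiolipin synthase, which makes the signature phospholipid of the mitochondrial inner membrane. Whether fat that lacks this lipid sends altered signals to the rest of the body is the question that the expression of secreted factors addresses.

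Adipose tissue acts as an endocrine organ. Adiponectin, leptin, resistin, adipsin (the product of Cfd), retinol binding protein 4 and chemerin (the product of Rarres2) are released mainly by adipocytes and reach liver, brain, muscle or immune cells. Brown fat also makes factors that are low in white fat, among them neuregulin 4, which signals to the liver, and BMP8b, which supports thermogenesis. ANGPTL4 inhibits lipoprotein lipase and so sets how much circulating triglyceride a tissue takes up.

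In AdCKO iBAT the 9 genes did not move together. Retn, Rarres2 and Bmp8b rose, Adipoq, Rbp4 and Nrg4 fell, and Lep, Cfd and Angptl4 did not pass the threshold (limma, adjusted p of 0.01, two-sided). Adipoq was the exception among the called genes in that its sign turned when libraries were scaled by other means. Of all tested genes 25.6% were called higher and 28.0% lower, or 53.6% in all, so a count of 6 called among 9 lies near the background. The groups did not overlap for the same 6 genes, against 50.9% of all tested genes. The median log2 fold change was 0.09 for the 9 genes and -0.01 for all tested genes.

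Values are given as normalized reads per kb of counted exon, a quantity the authors made comparable between libraries and divided by gene length. Fold changes and their standard errors (SE) are on a log2 scale after adding 1, so changes of low genes come out too small, and error ranges beside means are SD over 5 mice. In bulk tissue, fewer cells of a type and less RNA per cell cannot be told apart. The targeted gene was checked first. Crls1 stood at 1060 ± 191 in Control and 217 ± 26.4 in AdCKO (log2 fold change -2.27 with SE 0.13, limma adjusted p = 3.53e-08), with no overlap. Ucp1, the uncoupling protein that defines brown adipocytes, was abundant in both groups at a mean of 36912 in Control and 14069 in AdCKO. The summed normalized reads ranged from 7615403 to 8171138 in Control libraries and from 5419800 to 5843024 in AdCKO libraries, without overlap. Markers of other cells differed as well. The 7 skeletal muscle markers summed to between 439 and 479 in Control, to 266 and 273 in AdCKO 3 and 5, and to 5692, 20934 and 8152 in AdCKO 1, 2 and 4. Without these 3 libraries, which leaves only AdCKO 3 and 5 in that group, 3 of the 9 genes were called higher and 4 lower, Cfd being the added one. Over all genes, 2083 were called higher and 2191 lower in that fit, against 2879 and 3152 with all libraries.

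**Figure D1:**
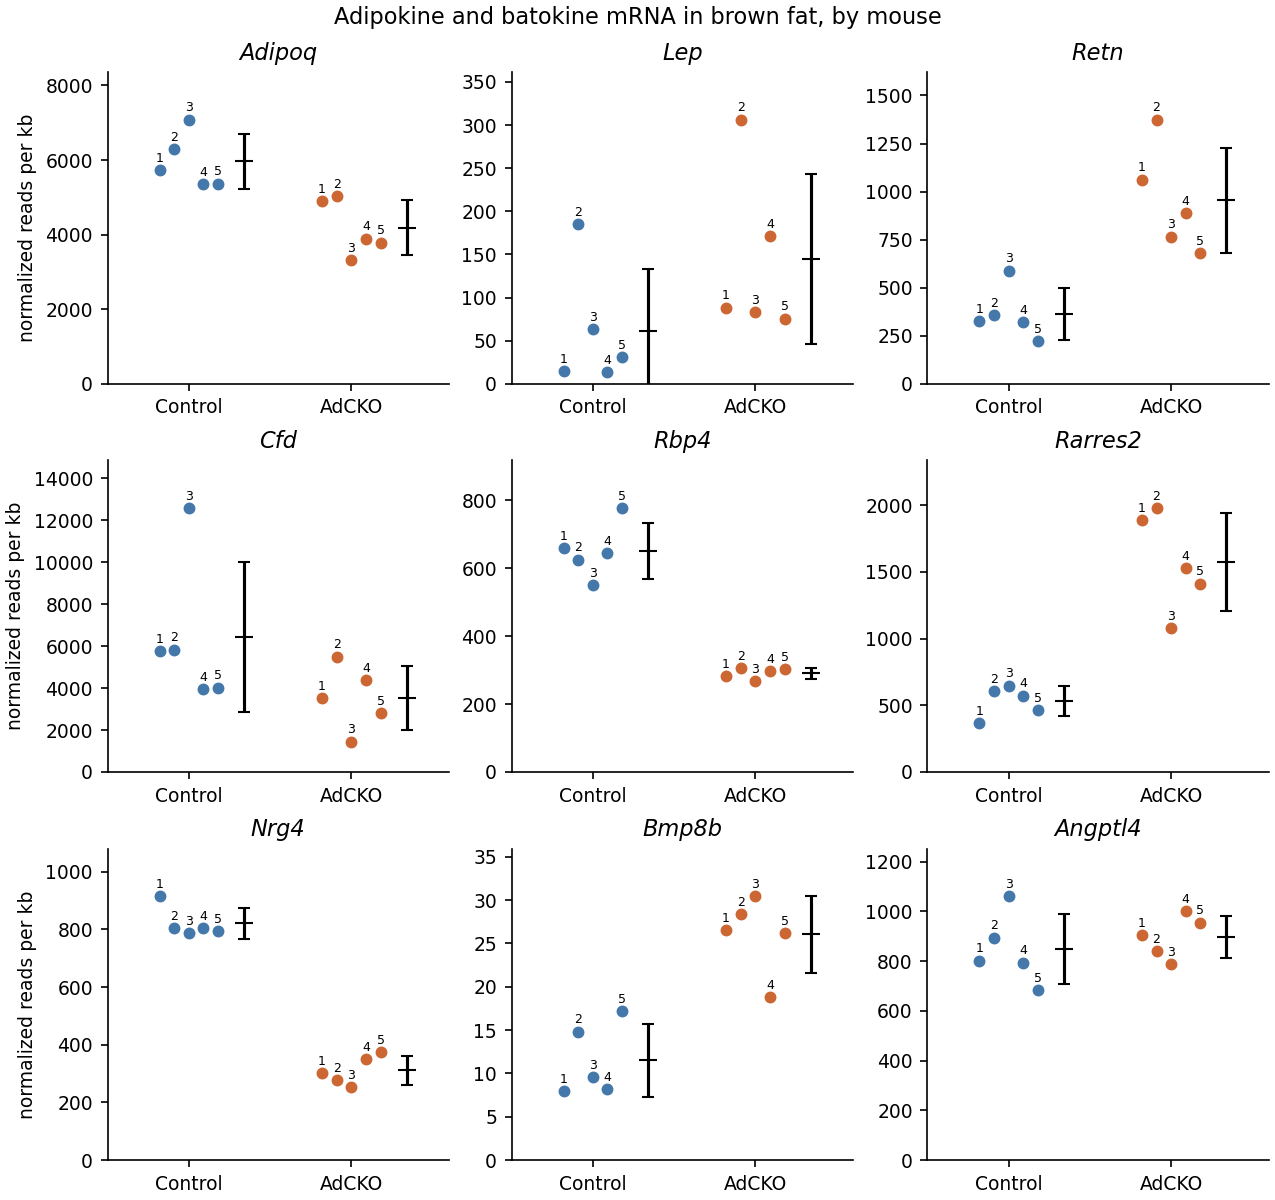
Normalized reads per kb (y axis, starting at 0) of the 9 genes in each of 5 Control and 5 AdCKO libraries, numbered by replicate, with the mean and SD of each group as a bar. Retn, Rarres2 and Bmp8b lie higher and Rbp4, Nrg4 and Adipoq lower in all AdCKO mice than in any Control mouse under the authors' normalization, while the groups overlap for Lep, Cfd and Angptl4. The SD bar of Lep in Control reaches below 0 and is clipped at the axis.

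The bases just upstream of 3 of these genes are shown, and their part in the differences between the groups was not tested. Each is the 250 bases before the annotated transcript start, read 5′ to 3′ on the strand of the gene from the mouse genome mm9. That of Adipoq (chr16:23146359-23146608, plus strand) belongs to the gene whose promoter drives Cre in the AdCKO mice. Those of Lep (chr6:29009971-29010220, plus strand) and Rbp4 (chr19:38199812-38200061, minus strand) are the ones among the 9 that held a match to a searched motif, which is set in capitals.
Adipoq: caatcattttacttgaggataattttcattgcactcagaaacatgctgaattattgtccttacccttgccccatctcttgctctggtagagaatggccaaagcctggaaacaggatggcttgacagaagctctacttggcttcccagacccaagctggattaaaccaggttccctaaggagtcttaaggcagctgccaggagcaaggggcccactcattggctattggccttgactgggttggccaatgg
Lep: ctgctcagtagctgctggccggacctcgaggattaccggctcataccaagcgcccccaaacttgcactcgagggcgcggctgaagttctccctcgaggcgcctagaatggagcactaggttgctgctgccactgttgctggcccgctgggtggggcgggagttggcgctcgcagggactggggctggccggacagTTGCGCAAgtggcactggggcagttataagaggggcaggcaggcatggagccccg
Rbp4: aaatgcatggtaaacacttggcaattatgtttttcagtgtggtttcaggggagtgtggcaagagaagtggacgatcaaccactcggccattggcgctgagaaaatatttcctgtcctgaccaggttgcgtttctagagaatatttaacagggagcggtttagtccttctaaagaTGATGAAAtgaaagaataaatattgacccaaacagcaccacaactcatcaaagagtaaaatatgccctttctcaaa
Both strands of 15073 such windows were searched. The C/EBP motif TTGCNNAA, bound by a family of factors that includes C/EBPα, was found in 7.54% of all windows and, among the 9, before Lep, where it starts 55 bases before the transcript start. The C/EBP-ATF motif TGATGNAA, which dimers of a C/EBP factor with an ATF factor bind, was found in 2.03% of all windows and before Rbp4, where it starts 76 bases upstream. The TATA box TATAAA (7.34% of all windows), the PPAR direct repeat, 2 copies of AGGNCA with 1 base between them (0.285%), and the E-box CACGTG (7.88%) matched none of the 9 windows. Base composition set the genes apart as well. The Adipoq window holds 0 CpG dinucleotides and those of Retn and Cfd 2 each, whereas the Lep and Bmp8b windows hold 16 each, against a median of 14 over all windows. Only exact matches were counted, and they describe the letters only and do not show binding.

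Among the classical adipokines, adiponectin and adipsin were the most abundant. Adipoq (NM_009605, chr16:23146609-23158041, plus strand, 3 exons) encodes the insulin-sensitizing hormone adiponectin, and its level ranked at the 99.5 percentile of genes in Control. Adipoq stood at 5731, 6300, 7079, 5345 and 5364 normalized reads per kb in Control 1 to 5 and at 4890, 5032, 3324, 3894 and 3786 in AdCKO 1 to 5. Every AdCKO mouse lay below every Control mouse, with AdCKO 2 and Control 4 closest to each other. The mean in AdCKO was 70.2% of that in Control (log2 fold change -0.52 with SE 0.13, limma adjusted p = 0.00383; exact permutation test p = 0.0079, the smallest that 5 against 5 allow), but the difference was -0.04 once all libraries had equal totals, 0.30 after quantile normalization and 0.35 when libraries were scaled to general adipocyte genes. Only the mice with the lower values carried a transgene driven by the promoter of this gene, so the transgene and the loss of Crls1 cannot be told apart for Adipoq. Because no Control mouse carried Cre, the same holds for every other gene compared here. The call was also lost without Control 2 (limma adjusted p = 0.0106) or Control 3 (0.0109). The genes on either side of Adipoq did not pass the threshold. They are Rfc4, a subunit of the clamp loader of DNA replication 18805 bases to the left (30.4 and 34.9 in Control and AdCKO, limma adjusted p = 0.156), and St6gal1, a sialyltransferase 66771 bases to the right (42.0 and 36.2, adjusted p = 0.155).

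Cfd (NM_001291915, chr10:79353598-79355405, plus strand, 5 exons) encodes adipsin, the serine protease that starts the alternative complement pathway. Cfd stood at 5769, 5832, 12584, 3951 and 4024 in Control 1 to 5 and at 3519, 5492, 1438, 4362 and 2796 in AdCKO 1 to 5. The groups overlapped, with Control 3 far above all other mice and AdCKO 3 the lowest. The mean was 6432 ± 3557 in Control and 3521 ± 1538 in AdCKO (log2 fold change -0.86 with SE 0.37, limma adjusted p = 0.0582, 95% interval -1.67 to -0.05). Without AdCKO 1, 2 and 4, the libraries high in muscle markers, the fold change was -1.54 (limma adjusted p = 0.00816), and scaled to general adipocyte genes it was 0.01.

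Leptin and resistin, which act on satiety centres of the brain and on inflammation and glucose control in rodents, both had higher means in AdCKO. Lep (NM_008493, chr6:29010221-29023876, plus strand, 3 exons) stood at 14.4, 185, 63.3, 13.2 and 30.6 in Control 1 to 5 and at 88.5, 306, 82.8, 171 and 75.7 in AdCKO 1 to 5. All AdCKO values lay above those of 4 Control mice, but Control 2 was above 4 of the AdCKO values. Within Control the highest value was 14.0 times the lowest, the widest range among the 9 genes. The log2 fold change was 1.70 with an SE of 0.65 (limma adjusted p = 0.0351, 95% interval 0.29 to 3.12; exact permutation test p = 0.17), which did not pass the threshold. Without Control 2 it was 2.27 (limma adjusted p = 0.00245), and without the AdCKO libraries high in muscle markers it was 1.06 (adjusted p = 0.288).

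Retn (NM_001204959, chr8:3655770-3659818, plus strand, 5 exons) encodes resistin, which in mice is made by adipocytes. Retn stood at 325, 355, 588, 321 and 223 in Control 1 to 5 and at 1062, 1373, 765, 889 and 680.3 in AdCKO 1 to 5. The groups did not overlap, with Control 3 and AdCKO 5 closest to each other. Its mean rose 2.63-fold, from 363 ± 136 to 954 ± 275 (log2 fold change 1.42 with SE 0.24, limma adjusted p = 0.00022; exact permutation test p = 0.0079), and the change stayed positive under all 3 other scalings. In the 2 AdCKO libraries low in muscle markers, the log2 fold change against Control was 1.06 (limma adjusted p = 0.00733).

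The balance of these hormones within a library does not depend on a scaling factor shared by all genes. The log2 ratio of Retn to Adipoq was -4.10 ± 0.35 in Control and -2.16 ± 0.22 in AdCKO, a difference of 1.94 without overlap (exact permutation test p = 0.0079, adjusted over 2 ratios 0.016). For Lep to Adipoq it was -7.27 ± 1.44 and -5.05 ± 0.75, a difference of 2.23 with overlap (exact permutation test p = 0.032, adjusted 0.032). The exact permutation p of the Lep ratio was 0.063 without Control 1, 3, 4 or 5 or AdCKO 2 or 4.

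Markers of white adipocytes were also higher in AdCKO. All 4 tested white adipocyte markers (Hoxc8, Slc7a10, Nnat and Agt) rose, against 25.6% of all tested genes. The list summed to between 139.8 and 191 in Control and between 683 and 964 in AdCKO. Nnat, with means of 51.7 in Control and 451 in AdCKO, gave most of this difference. In the sum AdCKO 1 and 2 were highest, as for Retn and Rarres2, whereas Lep was highest in AdCKO 2 and 4. AdCKO 2 was also the highest in muscle markers (20934). General adipocyte genes went the other way, summing to between 234065 and 280368 in Control and between 138229 and 159669 in AdCKO. Most of this difference came from Fabp4 (means 147241 and 108235, limma adjusted p = 0.0205, not called) and Gpd1 (52061 and 12794). Of 6 tested fibroblast and preadipocyte markers 5 rose (median 1.64), against 25.6% of all tested genes. They summed to between 1021 and 1418 in Control and between 2716 and 4364 in AdCKO. The part of these cell populations in the levels of Lep, Retn and Rarres2 was not tested.

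**Figure D2:**
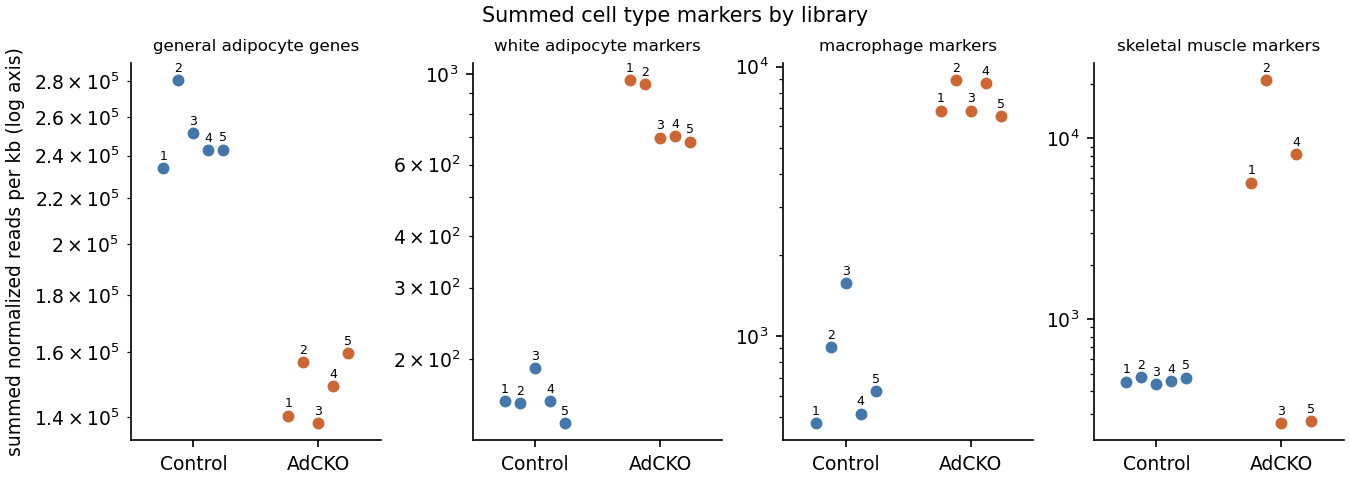
Summed normalized reads per kb (log axis) of general adipocyte genes and of white adipocyte, macrophage and skeletal muscle markers in each library, numbered by replicate. White adipocyte and macrophage sums are higher in every AdCKO library, general adipocyte sums lower, and muscle sums reach 5692 or more in AdCKO 1, 2 and 4 only.

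Rarres2 (NM_027852, chr6:48519697-48522669, minus strand, 6 exons) encodes the attractant and adipokine chemerin. Rarres2 stood at 368, 604, 646, 572 and 463 in Control 1 to 5 and at 1886, 1978, 1077, 1527 and 1412 in AdCKO 1 to 5. The groups were widely apart, and the lowest AdCKO mouse exceeded the highest Control mouse. The mean rose 2.97-fold, from 530.3 ± 114 to 1576 ± 366 (log2 fold change 1.57 with SE 0.18, limma adjusted p = 1.18e-05). Of the 708 exon bases of this gene 323 overlap Lrrc61 on the opposite strand, and 385 were counted. Lrrc61 itself fell from 94.3 to 74.9 (log2 fold change -0.32).

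Rbp4 (NM_001159487, chr19:38191110-38199811, minus strand, 6 exons) encodes the plasma carrier of retinol, raised levels of which are known to accompany insulin resistance. Rbp4 stood at 659, 625, 550.4, 643 and 777 in Control 1 to 5 and at 282, 305, 267, 296 and 302 in AdCKO 1 to 5. The AdCKO values were tightly grouped, the highest being 1.14 times the lowest, and all lay well below Control. The mean fell from 651 ± 81.9 to 290.5 ± 15.8, or 44.6% of Control (log2 fold change -1.15 with SE 0.09, limma adjusted p = 3.14e-07). Scaled to general adipocyte genes the decrease was smaller and no longer called (-0.28, limma adjusted p = 0.014).

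Of the factors linked to brown fat, 1 fell and 1 rose. Nrg4 (NM_032002, chr9:55068029-55131432, minus strand, 8 exons) encodes the EGF family ligand neuregulin 4, which binds ErbB receptors. Nrg4 stood at 916, 804, 788, 806 and 794 in Control 1 to 5 and at 301, 277, 253, 351 and 374 in AdCKO 1 to 5. Control was almost uniform apart from Control 1, and no AdCKO value came near it. The mean fell from 821 ± 53.2 to 311 ± 50.5, or 37.9% of Control (log2 fold change -1.41 with SE 0.10, limma adjusted p = 2.71e-07), and the fall was called under each scaling (-0.54 to -1.21). The 9 brown adipocyte markers did not move together (2 higher, 4 lower, 3 not called, median -0.06). Of all tested genes 25.6% were called higher and 28.0% lower, with a median of -0.01. Their sum lay lower in AdCKO, between 15007 and 34268 against 47028 to 70102, and was carried mainly by Ucp1 (log2 fold change -1.42) and the lipid droplet protein Cidea (-1.63). The thermogenic coactivator Ppargc1a (2.24) and the developmental factor Lhx8 (0.75) rose. The part of brown adipocytes in the Nrg4 level was not tested. The gene shares 166 exon bases with Fbxo22 on the opposite strand, which fell from 254 to 207 (log2 fold change -0.29).

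Bmp8b (NM_007559, chr4:122782408-122803334, plus strand, 7 exons), a ligand of the TGF-β superfamily, was the scarcest of the 9 genes. Bmp8b stood at 7.96, 14.8, 9.55, 8.20 and 17.2 in Control 1 to 5 and at 26.5, 28.4, 30.5, 18.8 and 26.2 in AdCKO 1 to 5. The groups did not overlap, but Control 5 and AdCKO 4 were close. The mean rose 2.26-fold, from 11.5 ± 4.21 to 26.1 ± 4.42 (log2 fold change 1.15 with SE 0.21, limma adjusted p = 0.000365). Of its distinct 50-base sequences 7.65% also occur in other genes, among them its paralog Bmp8a, which was at 0.609 in Control and 0.636 in AdCKO and was too low to test.

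Angptl4 (NM_020581, chr17:33911845-33918520, minus strand, 7 exons) stood at 802, 894, 1061, 794 and 684 in Control 1 to 5 and at 903, 840.1, 787, 1001 and 954 in AdCKO 1 to 5. The groups covered nearly the same range. The log2 fold change was 0.09 with an SE of 0.11 (limma adjusted p = 0.484, 95% interval -0.15 to 0.34). It was called higher with equal library totals (0.57) and when scaled to general adipocyte genes (0.96).

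**Figure D3:**
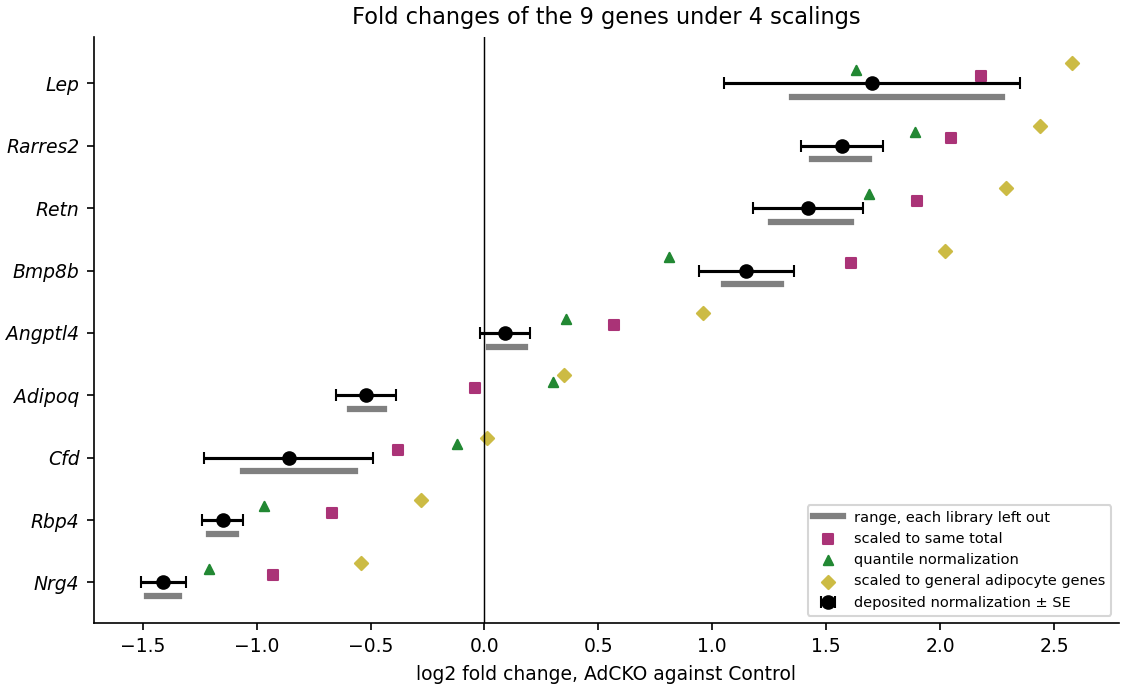
Log2 fold changes of the 9 genes, AdCKO against Control (x axis). Black points with bars give the authors' normalization with SE, grey bars the range when each library is left out, and coloured points the 3 other scalings. The order of the genes is similar throughout, but Adipoq turns from -0.52 to 0.30 and 0.35, and Cfd to 0.01.

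Scaling set the level against which all changes are read. With equal totals for all libraries, the median log2 fold change of all tested genes moved up by 0.47, and with scaling to general adipocyte genes by 0.87, while quantile normalization moved it by -0.07. Relative to these medians, Adipoq was at -0.50 and -0.51 under the scalings that shift all genes alike and at 0.38 after quantile normalization. Nrg4 was at -1.39, -1.40 and -1.13 in the order same total, general adipocyte genes and quantile, and Rbp4 at -1.13, -1.14 and -0.89. Lep, Retn, Rarres2 and Bmp8b were above the median by 0.89 or more in each case.

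The genes also differed in how much they varied among mice of 1 genotype. The pooled SD within groups on the log2 scale was 1.25 for Lep, a spread higher than in 99.5% of tested genes. It was 0.71 for Cfd and 0.45 for Retn, and only 0.18 for Nrg4 and 0.14 for Rbp4, close to the median of 0.16. Deviations from the group means went together for Adipoq and Cfd (Pearson r = 0.85), Adipoq and Retn (0.84), Retn and Cfd (0.81) and Adipoq and Rarres2 (0.80). Those of Rbp4 ran against Angptl4 (-0.64) and Retn (-0.62). These are descriptions over 10 libraries, in which points share dissection and the markers of other cells: AdCKO 1, 2 and 4, with high muscle markers, were also the highest AdCKO libraries for Adipoq, Lep, Retn, Cfd and Rarres2.

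**Figure D4:**
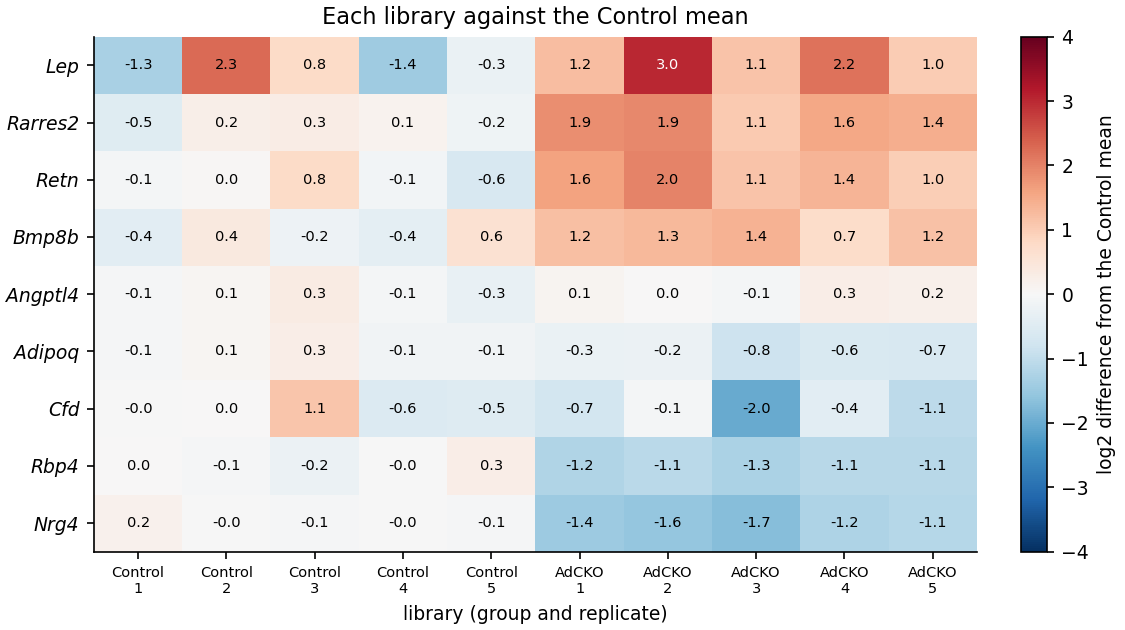
Log2 difference of each of the 10 libraries from the Control mean for the 9 genes, written in each cell and shown as colour from blue (lower) to red (higher) under the authors' normalization. Rarres2, Retn and Bmp8b are red and Rbp4 and Nrg4 blue in all 5 AdCKO columns, while Lep varies within both groups.

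By the same measure over 10 libraries, the 2 genes outside the set whose deviations were most like those of Nrg4 were Elovl6, a fatty acid elongase (r = 0.939), and Itsn2, an endocytic scaffold (0.935). Elovl6 fell from 3384 to 749.9 (log2 fold change -2.23) and Itsn2 was at 44.3 and 40.5 (limma adjusted p = 0.184). For Adipoq they were Pias3 (0.980) and Ces1f (0.928), for Lep Sh3tc1 (0.969) and Gpc1 (0.961), and for Cfd Esr1, the estrogen receptor α (0.966), and Cd302 (0.962). For Retn they were Atp2b4 (0.944) and Tst (0.943), for Rbp4 Cxxc5 (0.937) and Rassf1 (0.920), and for Rarres2 Zfp385a (0.952) and Slc35c1 (0.922). For Bmp8b they were Rbpms (0.938) and Mrpl36 (0.916), and for Angptl4 Nmt1 (0.943) and Thumpd2 (0.942). Such pairs were picked from all tested genes as the highest values, and gene pairs of opposite change, such as Retn (higher) and Tst (lower, log2 fold change -0.54), were among them.

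The receptors through which these factors act were also measured. Adipor2, a receptor of adiponectin, fell from 2681 ± 214 to 1416 ± 90.2 (log2 fold change -0.92 with SE 0.08, limma adjusted p = 8.16e-07). Cdh13, which binds adiponectin at the cell surface, fell by 0.29 on the log2 scale, a sign that turned with the same total (0.19) and with adipocyte scaling (0.58). Adipor1 did not pass the threshold (-0.24, limma adjusted p = 0.015). Thus 2 of the 3 genes were called, both lower, against 28.0% of all tested genes called lower. The median was -0.29, against -0.01 for all tested genes. With adipocyte scaling Adipor2 was at -0.05 and none of the 3 was called lower.

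For leptin, resistin, RBP4 and chemerin, all 4 tested receptors and partners rose (median 0.86), against 25.6% of all tested genes. Cmklr1, the signalling receptor of chemerin, rose from 25.2 ± 3.48 to 78.1 ± 20.4 (log2 fold change 1.56 with SE 0.16, limma adjusted p = 4.38e-06). Ccrl2, which concentrates chemerin without signalling, rose by 0.64, Tlr4 by 0.92 and Cap1 by 0.79, the last 2 being proposed resistin partners. The leptin receptor Lepr (0.662 and 0.820 in Control and AdCKO), the RBP4 receptor Stra6 (0.328 and 0.341) and the chemerin receptor Gpr1 (2.14 and 2.22) were too low to test. Macrophage markers lay far higher in AdCKO, summing to between 476 and 1571 in Control and between 6531 and 8889 in AdCKO. Of 8 such markers 7 were called higher, against 25.6% of all tested genes. The part of macrophages in Cmklr1, Ccrl2 and Tlr4 was not tested.

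Of 6 tested receptors for neuregulin 4 and BMP8b, 3 rose, against 25.6% of all tested genes, namely Erbb2 (log2 fold change 0.47), Acvrl1 (0.41) and Bmpr1a (0.34), and the median was 0.36. After quantile normalization 1 of the 6 was called, Erbb2 was at 0.07 and the median was 0.11, while all 6 were called higher with equal library totals or adipocyte scaling. Erbb4, the main receptor of neuregulin 4, was at 0.588 in Control and 0.469 in AdCKO and was too low to test.

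**Figure D5:**
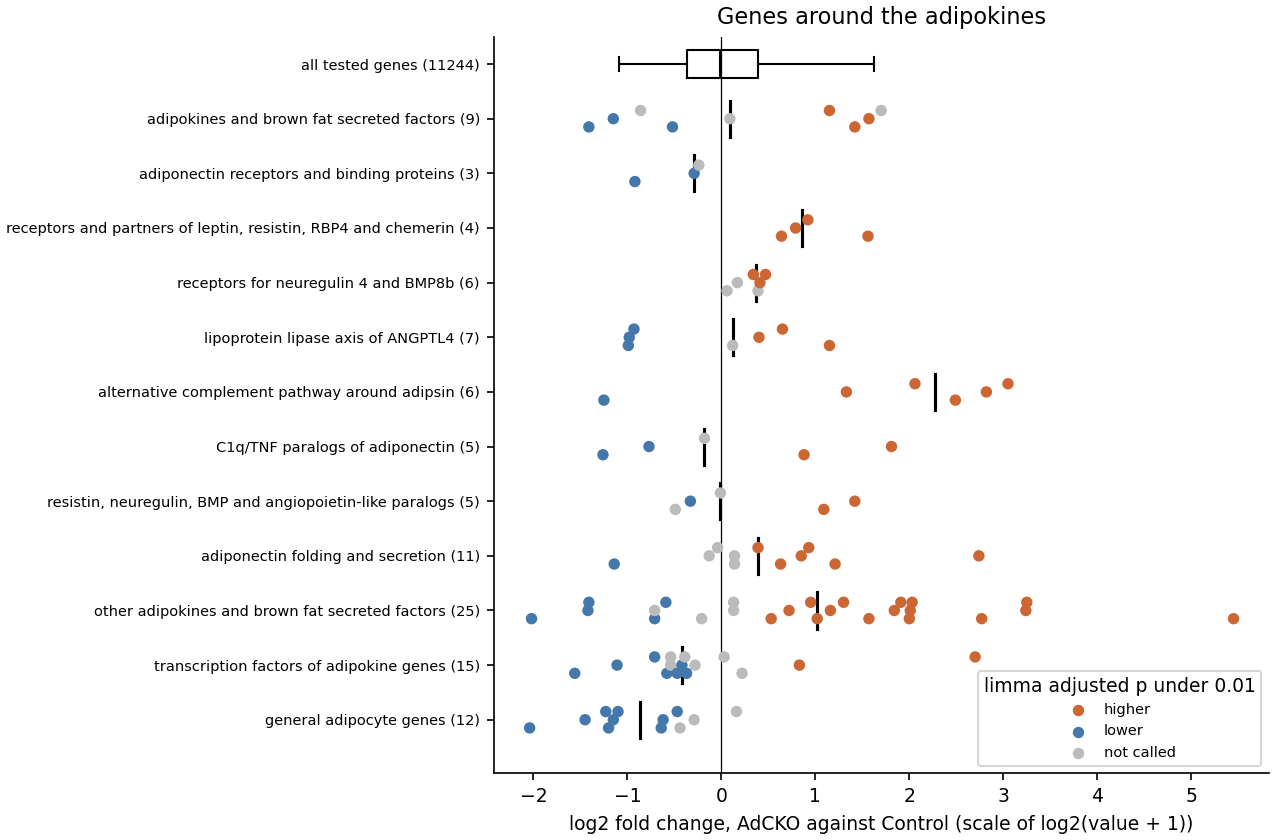
Log2 fold changes (x axis, AdCKO against Control, authors' normalization) of the tested genes of each list, with the number tested in brackets. Orange points were called higher, blue lower and grey not called, black lines are list medians, and the box at the top gives all 11244 tested genes with its median, quartiles and whiskers from the 5th to the 95th percentile.

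The enzyme that ANGPTL4 inhibits rose while Angptl4 mRNA did not pass the test. Lpl, the lipase that frees fatty acids from lipoproteins, stood at 11520 ± 1656 in Control and 18044 ± 1541 in AdCKO (log2 fold change 0.65 with SE 0.12, limma adjusted p = 0.000384). Its cofactor Apoc2 (1.15) and Sel1l (0.40), which helps its maturation, also rose. Its maturation factor Lmf1 fell (-0.98), as did Gm6484, a symbol for Angptl8, from 515 ± 140.3 to 258 ± 78.5 (-0.99 with SE 0.22, limma adjusted p = 0.00195). Gpihbp1, the capillary anchor of the lipase, was at 0.12 (limma adjusted p = 0.387). In all, 3 of 7 genes rose and 3 fell (median 0.12), against 25.6% and 28.0% of all tested genes. With adipocyte scaling Lmf1 was at -0.11 and Gm6484 at -0.12, and none of the 7 was called lower.

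Around adipsin, 5 of 6 tested genes of the alternative complement pathway rose (median 2.28), against 25.6% of all tested genes. C3, the substrate of the pathway, was the 1 that fell, from 1266 ± 332 to 539 ± 162 (log2 fold change -1.25 with SE 0.23, limma adjusted p = 0.000386). With adipocyte scaling C3 was at -0.38 and no longer called. The receptors C3ar1 (3.05) and C5ar1 (2.82), the stabilizing factor Cfp (2.49) and Cfb (2.06), which adipsin cleaves, rose. The high macrophage markers stand beside these too, and their part was not tested. Cfi was too low to test.

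Relatives of the 9 genes went both ways, as did all tested genes, of which 25.6% were called higher and 28.0% lower. Of 5 tested C1q/TNF paralogs of adiponectin, C1qtnf6 (1.81) and C1qtnf1 (0.88) rose, while Fam132a, a symbol for adipolin, fell from 478 ± 59.9 to 198 ± 16.7 (-1.26 with SE 0.09, limma adjusted p = 2.71e-07), as did C1qtnf4 (-0.77, but 0.10 with adipocyte scaling). Of 5 other paralogs, Retnla (1.42), a resistin relative of alternatively activated macrophages, and Angptl6 (1.09) rose, and Bmp6 fell (-0.33, but 0.14 with the same total and 0.54 with adipocyte scaling).

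Genes listed for the folding and release of adiponectin, not all of them particular to it, rose more often than they fell. Whether their rise concerns adiponectin was not tested. Of 11 genes 6 were called higher and 1 lower (median 0.39), against 25.6% and 28.0% of all tested genes. Adipoq itself did not rise under the authors' normalization. Ero1l, the oxidase that supports disulfide bonds of secreted proteins, rose from 52.7 ± 2.69 to 358 ± 23.1 (log2 fold change 2.74 with SE 0.07, limma adjusted p = 1.25e-10). The disulfide isomerases P4hb (1.21) and Pdia3 (0.63) and the chaperone Hspa5 (0.93) rose as well. Gstk1, also known as DsbA-L, which promotes adiponectin multimers, fell from a Control mean of 334 ± 29.5 (log2 fold change -1.14 with SE 0.07, limma adjusted p = 1.03e-07).

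Among 25 other tested adipokines and brown fat factors, 16 rose and 5 fell (median 1.02), against 25.6% and 28.0% of all tested genes. Besides the macrophage markers, the fibroblast and preadipocyte markers were higher in AdCKO, and the part of these cells in the counts was not tested. The stress hormones Gdf15 (log2 fold change 5.45) and Fgf21, from 18.1 ± 2.96 to 188 ± 75.1 (3.24), the iron-binding lipocalin Lcn2, from 19.2 ± 2.65 to 192 ± 30.5 (3.25), and Metrnl (2.00) rose. Pm20d1, the secreted enzyme that makes N-acyl amino acids, fell from 148 ± 10.8 to 36.7 ± 11.2 (-2.02), Nampt from 841 ± 120.1 to 312 ± 35.5 (-1.42) and S100b from 486 ± 104 to 187 ± 62.5 (-1.41). With adipocyte scaling S100b was at -0.54 and no longer called. Vegfa fell by 0.59 on the log2 scale but was at 0.28 with adipocyte scaling.

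Of 15 tested transcription factors known to control adipokine genes, 2 rose and 7 fell, against 25.6% and 28.0% of all tested genes. The median was -0.42 and turned to 0.06 with the same total and 0.45 with adipocyte scaling. Ddit3, which encodes CHOP, a C/EBP family member, rose from 219 ± 7.97 to 1448 ± 256 (log2 fold change 2.70 with SE 0.11, limma adjusted p = 3.13e-09), and Cebpd rose by 0.83. Cebpa, the adipocyte C/EBP factor, fell from 3032 ± 234 to 1419 ± 252 (-1.11 with SE 0.12, limma adjusted p = 7.35e-06) and Klf15 by 1.56. With adipocyte scaling Cebpa was at -0.24 and no longer called. Srebf1 (-0.71) and Nr1h3 (-0.37) also fell, but were at 0.16 and 0.50 with adipocyte scaling.

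General adipocyte genes gave the ground against which the adipokines stand. Of 12 such genes 9 fell and none rose (median -0.87), against 28.0% and 25.6% of all tested genes. Those that fell included Gpd1 (-2.04), Dgat2 (-1.45), Pnpla2 (-1.23) and Lipe (-1.20), which make or break down triglyceride. The median was -0.38 with the same total and -0.27 after quantile normalization. Adipoq, at -0.52, fell less than the list median of -0.87, while Retn and Rarres2 rose. The difference between these genes and the list was not tested.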

How the data were processed

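RNA from iBAT of 5 Control and 5 AdCKO mice was analysed, grouped by the sample labels. The authors isolated polyadenylated RNA (TruSeq 2), mapped reads to mm9 with STAR, made tag directories with HOMER, used iRNA-seq to count reads on exons and DESeq2 to normalize. The deposited values are a signal: normalized reads divided by the counted exon length in kb. They are not counts. Low values did not fall on steps of whole reads (23.9% to 25.7% lay near a step in each library, within a tolerance of 0.1 of 1 read, against 20% by chance), so no count test was run, depth is unknown and precision is the spread between mice. The DESeq2 log2 fold changes and adjusted p-values of the authors, and their lists of called genes, were not used.

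A pseudocount of 1 was added and log2 taken. Genes whose mean reached 10 in a group (11244) were tested with limma 3.58.1 in R 4.3.3 (intensity trend, two-sided, Benjamini-Hochberg over all of them, threshold 0.01). Each group was fitted without covariates. For single genes, group means of untransformed values were compared by exact permutation over the 10 libraries (two-sided, scipy 1.17.1). The ratios were compared in the same way on the log2 scale. Nothing says that the mice came from separate litters, and p-values measure the spread between these mice. On simulated data for this comparison (10627 genes tested), 93.3% of genes changed by 1 log2 unit and 99.1% of those changed by 2 were recovered, and 1 unchanged gene was called. The simulation changed 200 genes and drew noise independently for each gene. In the real data 53.6% of tested genes were called and marker differences were shared by many genes, so these rates need not carry over. The members and lists were chosen with earlier results of these data known. Named are all 9 members, all genes of lists with at most 8 genes in the table and otherwise the 4 called genes per direction with the smallest p, the 2 most alike genes per member and the neighbours of Adipoq. Some genes that this rule would name are counted in their lists but not reported here. Marker genes were named where a result touches them, and genes overlapping a member because they share its bases. Of the BMP8b list, Erbb4 was named outside this rule, after its values were seen. Upstream windows came from the NCBIM37 (mm9) genome. Alternatives were other pseudocounts, filters, scalings, limma settings, a block for the replicate number, leaving out each library, a threshold of 0.05 and, chosen after seeing the data, leaving out the 3 AdCKO libraries high in muscle markers. Figures were drawn with matplotlib 3.10.9.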

Additional observations from a re-analysis of the deposited data

Results flagged for a closer look

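Of 22 groups of 5 values examined (the 9 genes and their ratios in Control and in AdCKO), 2 held a library far from the other 4, and chance flags about 1 in 20 groups. Cfd in Control 3 was at 12584 normalized reads per kb, against 3951 to 5832 in the other Control mice, a gap of 0.782 of the range. The same library was the highest of Control for Adipoq, Retn and Rarres2 and for the macrophage markers. Nrg4 in Control 1 was at 916, against 788 to 806 in the other Control mice, a gap of 0.861 of the range, and lay on the side away from AdCKO.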

How the results depend on the processing

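Retn, Rarres2, Bmp8b and Nrg4 kept their direction and their call under every alternative with all libraries and with each library left out. Adipoq depended on the scaling. Its log2 fold change was -0.04 with the same total in every library, 0.30 after quantile normalization and 0.35 with adipocyte scaling, and it lost the call with array quality weights (-0.41, limma adjusted p = 0.0101). Leaving out each library gave -0.59 to -0.44. Cfd was at 0.01 with adipocyte scaling and at -1.54, now called, without the muscle-high AdCKO libraries. Angptl4 became called with the same total (0.57) and adipocyte scaling (0.96), and Rbp4 lost its call with adipocyte scaling (-0.28). Lep became called with the same total (2.18), adipocyte scaling (2.58), array quality weights (2.09) and a threshold of 0.05 (1.70), and ranged from 1.35 to 2.27 when each library was left out. The Lep to Adipoq ratio was 1.33 after quantile normalization (exact permutation test p = 0.095) and 1.90 to 2.77 with each library left out. Members called higher were 5 with the same total and with adipocyte scaling, and members called lower were 1 with adipocyte scaling. Over all genes, 6811 were called higher and 1098 lower with the same total, and 9304 and 398 with adipocyte scaling, against 2879 and 3152. Equal totals remove the difference in summed reads between the groups. Adipocyte scaling sets the mean log2 value of the general adipocyte genes equal in every library. Both therefore raise AdCKO values against Control for all genes. Why the totals and the adipocyte genes differed between the groups was not tested.

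Replicate numbers of the 2 groups did not pair the mice (correlations of deviations from -0.27 to 0.10, with 1 of 10 libraries closest to its own number). With the replicate number as a block, Adipoq lost its call (-0.52, limma adjusted p = 0.01) and Lep gained it (1.70, adjusted p = 0.00957), and 2592 genes were called higher and 2838 lower.

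Depth is unknown, so low genes such as Bmp8b and Lep carry an unstated counting error. The mRNA levels of 1 age, 1 temperature and whole tissue were measured, and not secreted protein.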
